A study of Mus musculus with 21 samples.

Results

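Drd1 and Drd2, which encode the D1 and D2 receptors of dopamine, were followed through the midbrain of 21 mice. With them were Adora2a, Ppp1r1b and Rgs9, which are used as markers of projection neurons of the striatum. The 5 genes were chosen by name, with earlier results of these data known. All 5 were found in both deposited tables, among 33829 genes of a pre-treatment experiment and 55385 genes of a delayed treatment experiment. None of the 5 (0) passed an adjusted p of 0.05 in any of 7 comparisons by the quasi-likelihood test of edgeR, with Benjamini-Hochberg adjustment over all genes tested. In the delayed treatment experiment, Drd2 was higher in all control mice than in any MPTP mouse or any mouse given irisin alone (7.94% and 7.68% of all genes tested were lower without overlap in these comparisons), and Ppp1r1b was high in those mice that also had high levels of choroid plexus markers. At an unadjusted p under 0.05, edgeR gave 0 of the 5 genes in each of the 3 pre-treatment comparisons (6.03%, 6.22% and 7.12% of all genes tested). In the delayed treatment experiment it gave 1 (Drd2) for MPTP against control (8.33% of all genes), 2 (Drd2 and Ppp1r1b) for irisin alone against control (8.97%), 0 for delayed irisin after MPTP against MPTP (3.90%) and 1 (Ppp1r1b) for the interaction of irisin and MPTP (5.57%). DESeq2 gave the same genes at that threshold, and limma on log2(FPKM + 1) gave Drd2 in the same comparisons and Ppp1r1b in none (0). With the replicate number as a block, Drd2 with irisin alone (unadjusted p = 0.0601) and Ppp1r1b in the interaction (unadjusted p = 0.0696) no longer had such a p, and Drd1 had one for delayed irisin after MPTP (unadjusted p = 0.0440) and for the interaction (unadjusted p = 0.0492). With a choroid plexus covariate, Drd2 in MPTP mice alone had one.

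All mice were male C57BL/6 mice, given as 6 weeks old in the labels, and every injection was intraperitoneal. MPTP is a neurotoxin that damages dopaminergic neurons, and irisin is a muscle-derived peptide hormone cleaved from FNDC5. In the pre-treatment experiment, 3 control mice received ddH2O for 10 days, 3 MPTP mice received ddH2O for 5 days and then MPTP at 30 mg/kg per day for 5 days, and 3 mice received irisin at 200 μg/kg per day for 5 days before the same MPTP course. In the delayed treatment experiment, 3 control mice received ddH2O for 10 days, 3 mice received ddH2O and then irisin, 3 MPTP mice received MPTP and then ddH2O, and 3 mice received MPTP and then irisin, with the same doses and 5 days for each agent. MPTP was thus followed by 5 days of another injection in this experiment and ended the injections in the other, so a difference between the experiments cannot be told apart from the order of injection. The tissue is labelled midbrain, and the study's methods describe nigral tissue taken by hand from perfused brains, which leaves the borders of each piece to the dissection.

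Dopamine acts on D1-like receptors (Drd1, Drd5), which raise cyclic AMP, and on D2-like receptors (Drd2, Drd3, Drd4), which lower it. In the striatum, neurons of the direct pathway carry Drd1 and send their axons to the substantia nigra, and neurons of the indirect pathway carry Drd2 and Adora2a. In the midbrain, Drd2 is also the autoreceptor of dopaminergic neurons, through which released dopamine slows their firing. Ppp1r1b encodes DARPP-32, an inhibitor of protein phosphatase 1 that protein kinase A switches on, and Rgs9 encodes a protein that speeds the shut-off of G proteins after D2 receptor activation. The cell bodies of striatal neurons lie outside the midbrain, so their transcripts bear on which tissue a dissected piece held.

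The depth was 66.7 to 75.6 M (mega) counts per mouse with pre-treatment and 48.8 to 77.2 M with delayed treatment. MPTP mouse 2 of the pre-treatment experiment stood apart, with a summed level of 1676 CPM (read counts relative to the TMM-scaled depth of the library) over 6 choroid plexus markers, where the other 8 mice had 13.5 to 28.8 CPM. The same mouse had the highest sums of its experiment for the serotonergic (272 CPM), cerebellar (115 CPM), dopaminergic (974 CPM), cortical and hippocampal (154 CPM) and hypothalamic (24.2 CPM) marker lists, so the fold changes of MPTP against control with pre-treatment are also given without it. The choroid plexus sum of the delayed treatment experiment ran from 38.6 to 1666 CPM, with high and low mice in each group but the one given irisin alone. The dopaminergic list was present in every mouse, with sums of 600.2 to 974 CPM and 564 to 871 CPM in the 2 experiments, and Pitx3 alone was under 1 CPM in every mouse.

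Levels of different genes were compared as FPKM, which allows for gene length. Over all 21 mice the mean level was 14.4 FPKM for Ppp1r1b, 8.89 FPKM for Drd2, 2.09 FPKM for Rgs9, 0.572 FPKM for Drd1 and 0.467 FPKM for Adora2a. Ppp1r1b exceeded Drd2, Drd2 exceeded Rgs9 and Rgs9 exceeded Drd1 and Adora2a in 9 of 9 mice of the first experiment and in 12 of 12 of the second. Drd1 and Adora2a did not keep an order, with Drd1 the higher in 8 of 9 mice of the first experiment and in 4 of 12 of the second. Drd1 rested on 73 to 280 counts and Adora2a on 70 to 155 counts per mouse, so that these were the 2 genes with the least counting precision. Drd2 had 1249 to 2022 counts, Ppp1r1b 2058 to 4377 and Rgs9 637 to 1375.

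**Figure D1:**
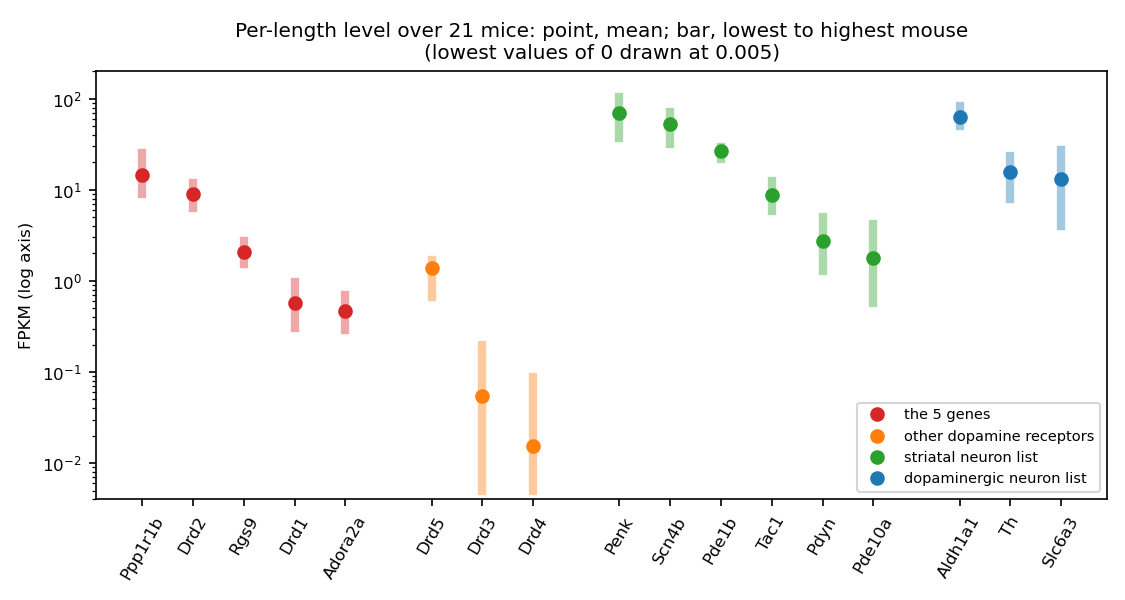
Level per gene length in FPKM (vertical log axis), as the mean of 21 mice (points) and the range from the lowest to the highest mouse (bars), for the 5 genes, the other dopamine receptors and named genes of the striatal and dopaminergic lists. Ppp1r1b and Drd2 lie at 14.4 and 8.89 FPKM, Drd1 at 0.572 FPKM lies under Drd5 at 1.38 FPKM, and Drd3 and Drd4 are near 0.

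Among the other dopamine receptors, Drd5 was the more abundant D1-like receptor, at a mean of 1.38 FPKM, and lay above Drd1 in 9 of 9 and 12 of 12 mice. Drd3 had 0 to 27 counts and Drd4 0 to 27 counts per mouse, under 1 CPM in every library, too few for a difference to be told, although the fit of the first experiment gave Drd4 an unadjusted p of 0.0234 for MPTP against control (adjusted p = 0.818). Of the 3, only Drd5 was tested in the delayed treatment experiment. Its log2 fold changes there were 0.09, 0.18 and 0.07 in the 3 comparisons of groups (standard error, SE, 0.16 each), none past an unadjusted p of 0.05. The tyrosine hydroxylase gene Th, the rate-limiting enzyme of dopamine synthesis, lay above Drd2 in 9 of 9 and 12 of 12 mice by FPKM, and the dopamine transporter gene Slc6a3 in 8 of 9 and 8 of 12.

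Drd1 (ENSMUSG00000021478; chromosome 13 of GRCm38, 54051183 to 54055705, minus strand, 2 exons) varied most from mouse to mouse. Its level was 3.92, 1.89 and 3.18 CPM in control mice of the pre-treatment experiment, 4.03, 1.59 and 2.93 CPM in MPTP mice and 1.70, 2.80 and 2.18 CPM with irisin before MPTP. The 3 groups overlapped, and the range within control mice covered all of the mice given irisin but 1. With delayed treatment, Drd1 was at 2.42, 2.47 and 1.54 CPM in control mice, 2.53, 2.04 and 1.28 CPM with irisin alone, 1.98, 2.23 and 1.26 CPM in MPTP mice and 3.20, 2.47 and 1.71 CPM with MPTP followed by irisin. The mouse numbered 3 was the lowest in each of these 4 groups, and again all groups overlapped. The within-group SD was 0.54 on the log2 scale in the first experiment and 0.44 in the second, where the median over all tested genes was 0.27 and 0.25.

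The log2 fold changes of Drd1 lay from −0.43 to 0.43 over the 6 comparisons of groups, all within the spread between mice. For MPTP against control in the pre-treatment experiment it was −0.07 (SE 0.38, 95% interval −0.94 to 0.79), which leaves changes from 0.522-fold to 1.73-fold within the interval. The mouse with the lowest Drd1 of that experiment was MPTP mouse 2, the one with the high choroid plexus sum, and without it the log2 fold change was 0.22, while that of irisin before MPTP against MPTP went from −0.36 to −0.65. For delayed irisin after MPTP against MPTP it was 0.43 (SE 0.33, unadjusted p = 0.225, adjusted p = 0.9995). With the replicate number as a block, it was also 0.43 (SE 0.18, unadjusted p = 0.0440, adjusted p = 0.9997). These intervals are the widest of the 5 genes.

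Drd2 (ENSMUSG00000032259; chromosome 9, 49340627 to 49408177, plus strand, 8 exons) was at 27.1, 18.4 and 28.9 CPM in control mice of the pre-treatment experiment. MPTP mice had 23.9, 19.6 and 23.7 CPM and mice given irisin before MPTP had 18.2, 23.5 and 20.8 CPM. Control mouse 2 lay as low as the lowest treated mice, and the groups overlapped. MPTP against control gave a log2 fold change of −0.15 (SE 0.18, unadjusted p = 0.432, adjusted p = 0.948), and irisin before MPTP against MPTP gave −0.11 (SE 0.18). Without MPTP mouse 2 these were −0.06 and −0.20.

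With delayed treatment, Drd2 was at 34.4, 32.9 and 29.8 CPM in control mice, which were its 3 highest values among the 12 mice. It was at 27.3, 25.3 and 29.2 CPM with irisin alone, 23.4, 25.8 and 29.0 CPM in MPTP mice and 24.2, 27.5 and 23.1 CPM with MPTP followed by irisin. The group means were 32.4 ± 2.34 CPM (SD, n = 3), 27.2 ± 1.95, 26.1 ± 2.83 and 24.9 ± 2.29 CPM in that order, and control and irisin alone were the only neighbours in the order of any of the 5 genes whose ranges did not overlap. Against control mice, the log2 fold change was −0.31 in MPTP mice (SE 0.10, 95% interval −0.54 to −0.08, unadjusted p = 0.0125, adjusted p = 0.438). Of all genes tested in this comparison, 8.33% had an unadjusted p under 0.05, 0.132% passed an adjusted p of 0.05 and 7.94% were lower in MPTP mice without overlap. Irisin alone against control gave −0.25 (SE 0.10, 95% interval −0.48 to −0.02, unadjusted p = 0.0372, adjusted p = 0.538), beside 8.97% of all genes with an unadjusted p under 0.05, 0.109% past an adjusted p of 0.05 and 7.68% lower without overlap. Both comparisons used the same 3 control mice, so they are not independent. Delayed irisin after MPTP against MPTP gave −0.06 (95% interval −0.29 to 0.17). None of the 5 genes (0) separated these groups or had an unadjusted p under 0.05 there without the replicate block, where 10.7% of all genes did not overlap, 3.90% had such a p and 0.00456% passed an adjusted p of 0.05.

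Genes of dopaminergic neurons were counted beside Drd2. Of the 12 genes on that list, 12 had negative log2 fold changes in MPTP mice of the delayed treatment experiment, with a median of −0.49 where the median of all tested genes was −0.001, 7 had an unadjusted p under 0.05 and 0 passed an adjusted p of 0.05. Th was at 63.3, 59.2 and 50.9 CPM in control mice and at 31.0, 31.5 and 46.1 CPM in MPTP mice, without overlap (log2 fold change −0.68, SE 0.14, unadjusted p = 0.000636, adjusted p = 0.188). Slc6a3, the dopamine transporter, had a log2 fold change of −1.08 (SE 0.37, adjusted p = 0.458). The MPTP mouse with the highest Th, mouse 3, which had the high choroid plexus sum of its group, also had the highest Drd2 of its group. In bulk tissue, fewer cells of a type and less RNA per cell cannot be told apart. With irisin alone, where Drd2 was also lower than in control mice, 11 of the 12 genes were negative with a median of −0.15, and 1, Ret, had an unadjusted p under 0.05. In the pre-treatment experiment, MPTP against control had 6 of the 12 negative and 6 positive, with a median of 0.05 and 1 at an unadjusted p under 0.05. Mice given irisin before MPTP against control had 12 of 12 negative with a median of −0.35, 4 at an unadjusted p under 0.05 and a smallest adjusted p of 0.0886. Drd2 had a log2 fold change of −0.25 there (unadjusted p = 0.187, adjusted p = 0.843). Irisin before MPTP against MPTP also had 12 of 12 negative, with a median of −0.31 and 2 at such a p. Delayed irisin after MPTP against MPTP had 8 of 12 negative, with a median of −0.08 and 0 at such a p. Over all genes tested, 3.90% to 8.97% had such a p in these comparisons. Drd2 and the mean level of this list had a Pearson's r of 0.34 over 21 mice after centring each experiment (permutation p = 0.156, Spearman's rho 0.39, permutation p = 0.104, adjusted p = 0.464 and 0.396 over 25 relations). It was 0.05 among the 9 mice of the first experiment and 0.68 among the 12 of the second, and −0.18 when every group was centred on its own mean. Without the 2 mice farthest from the median it was 0.13.

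**Figure D2:**
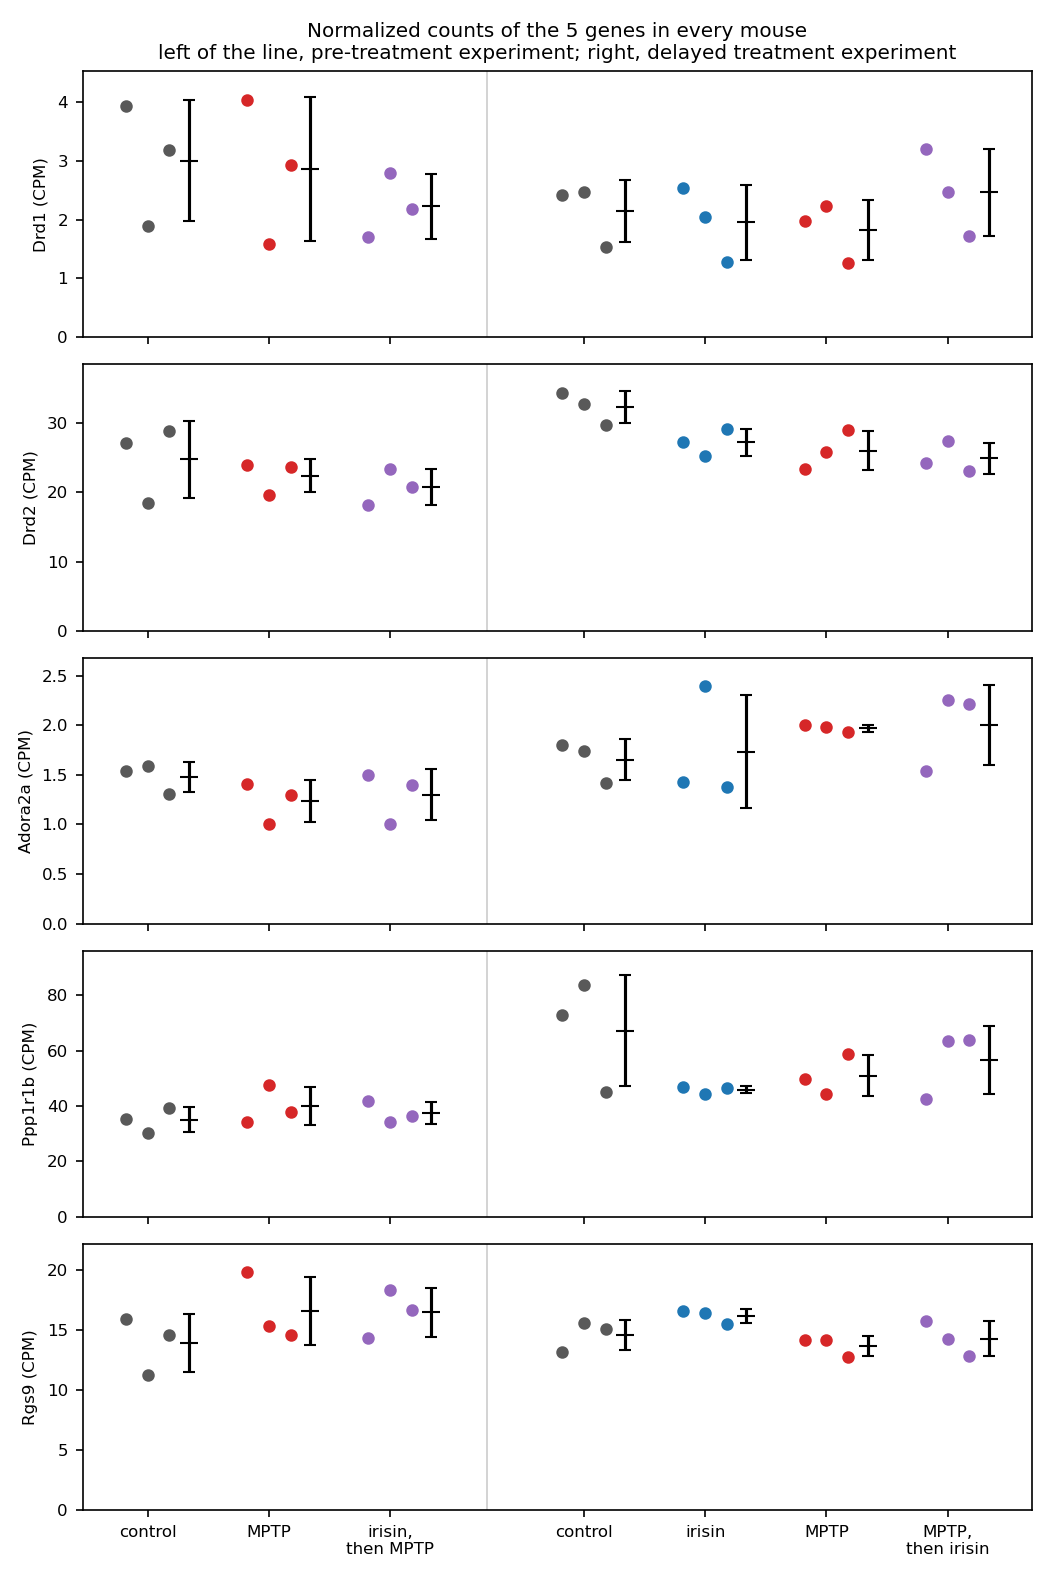
Level of each of the 5 genes in every mouse, in CPM (vertical axes from 0), by group (3 points each, in the order of mouse 1 to 3) with the mean and SD of 3 mice in black. Control mice of the delayed treatment experiment have the 3 highest values of Drd2, from 29.8 to 34.4 CPM, and Ppp1r1b spreads from 44.9 to 83.8 CPM among them.

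Adora2a (ENSMUSG00000020178; chromosome 10, 75316877 to 75334784, plus strand, 4 transcripts) encodes an adenosine receptor that opposes the D2 receptor in indirect-pathway neurons. It was at 1.54, 1.59 and 1.31 CPM in control mice of the pre-treatment experiment, 1.41, 1.003 and 1.29 CPM in MPTP mice and 1.49, 1.004 and 1.40 CPM with irisin before MPTP. The groups overlapped, and the 2 lowest mice belonged to different groups. Its level with delayed treatment was 1.80, 1.74 and 1.41 CPM in control mice, 1.43, 2.39 and 1.38 CPM with irisin alone, 1.998, 1.98 and 1.93 CPM in MPTP mice and 1.54, 2.26 and 2.21 CPM with MPTP followed by irisin. The MPTP mice were close to each other and lay above all control mice. This difference, a log2 fold change of 0.25, was as large as its standard error of 0.25 (95% interval −0.30 to 0.81, unadjusted p = 0.339, adjusted p = 0.852), and 8.24% of all genes tested were higher in MPTP mice without overlap. Counts of 77 to 91 in control mice and 112 to 155 in MPTP mice stood behind it, and the direction was the opposite of that in the pre-treatment experiment (−0.26, SE 0.24, 95% interval −0.80 to 0.28). Without MPTP mouse 2 of the pre-treatment experiment, its value there was −0.13. The difference between the experiments was not tested.

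Ppp1r1b (ENSMUSG00000061718; chromosome 11, 98348404 to 98357796, plus strand, 7 transcripts) had the most counts of the 5 genes. It overlaps 1700003D09Rik on the opposite strand, and since the use of strand in counting is not given in the sources used here, reads of the 2 genes cannot be told apart. That gene had 12 to 55 counts per mouse. In the pre-treatment experiment Ppp1r1b was at 35.5, 30.4 and 39.3 CPM in control mice, 34.2, 47.6 and 37.9 CPM in MPTP mice and 41.9, 34.1 and 36.3 CPM with irisin before MPTP. The groups overlapped, and MPTP mouse 2 was the highest mouse. Without that mouse the log2 fold change of MPTP against control was smaller, at 0.04 against 0.19 (SE 0.15), and that of irisin before MPTP against MPTP turned from −0.09 to 0.05.

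The control mice of the delayed treatment experiment lay far apart in Ppp1r1b, at 72.7, 83.8 and 44.9 CPM. Irisin alone gave a narrow range, at 47.0, 44.4 and 46.5 CPM, MPTP mice had 49.7, 44.3 and 58.8 CPM, and MPTP followed by irisin gave 42.5, 63.5 and 63.8 CPM. Every pair of neighbouring groups overlapped. Irisin alone against control had a log2 fold change of −0.55 (SE 0.22, 95% interval −1.02 to −0.07, unadjusted p = 0.0279, adjusted p = 0.525). It was −0.35 without control mouse 2 and −0.77 without control mouse 3. The interaction, which asks whether irisin had the same effect with and without MPTP, was 0.70 (SE 0.30, 95% interval 0.03 to 1.37, unadjusted p = 0.0424, adjusted p = 0.893), in a comparison where 5.57% of all genes had an unadjusted p under 0.05 and 0.0411% passed an adjusted p of 0.05.

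Markers of the choroid plexus, the epithelium that makes cerebrospinal fluid, were high in the mice of the delayed treatment experiment with the most Ppp1r1b, a pattern that was noticed after the values were seen. The summed CPM of the 6 markers (Ttr, Folr1, Kcne2, Kl, Clic6 and Prlr) was 1506, 1355 and 246 in control mice 1 to 3 of the delayed treatment experiment, in the order in which Ppp1r1b was 72.7, 83.8 and 44.9 CPM. With irisin alone the sums were 61.9, 66.8 and 295 CPM, in MPTP mice 38.6, 95.003 and 1545 CPM, and with MPTP followed by irisin 173, 1666 and 571 CPM. The 5 mice with sums of 571 CPM or more were the 5 with the most Ppp1r1b, at 58.8 to 83.8 CPM, and the other 7 mice, with sums up to 295 CPM, had 42.5 to 49.7 CPM. The 5 mice came from 3 of the groups, and no mouse given irisin alone (0 of 3) was among them. Within the 5, the order was not kept, and the 2 highest sums (1666 and 1545 CPM) went with the 2 lowest Ppp1r1b values (63.5 and 58.8 CPM). Among the other 7, the lowest sum (38.6 CPM) went with the highest Ppp1r1b (49.7 CPM). Against control mice, the 6 markers had a median log2 fold change of −2.34 with irisin alone, and 2 had an unadjusted p under 0.05. In the pre-treatment experiment the 1 mouse with a high sum, MPTP mouse 2, had the highest Ppp1r1b, at 47.6 CPM against 30.4 to 41.9 CPM in the other 8. Spearman's rho between Ppp1r1b and the sum was 0.61 over the 12 mice and 0.20 over the 9, given as a description. Without MPTP mouse 2 it was −0.14 over the other 8, so the positive value of that experiment rested on this mouse, and 3 of the 5 mice with the highest sums there were among the 5 with the most Ppp1r1b. Ttr, which carries thyroid hormone and made up most of the high sums, ran from 24.2 to 1550 CPM in the former experiment.

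With the log2 choroid plexus sum as a covariate, a fit that was added after this was seen, the difference of Ppp1r1b between irisin alone and control was −0.20 (SE 0.21, unadjusted p = 0.374, adjusted p = 0.959) and the interaction was 0.15 (SE 0.31, unadjusted p = 0.634, adjusted p = 1). The same covariate gave −0.08 for Drd2 with irisin alone (SE 0.09, unadjusted p = 0.397, adjusted p = 0.960) and −0.19 for Drd2 in MPTP mice (SE 0.08, unadjusted p = 0.0460, adjusted p = 0.718). Drd2 had a Spearman's rho of 0.53 with the sum over those 12 mice and −0.27 over the 9 of the other experiment (−0.17 without MPTP mouse 2). The sum was chosen because it went with Ppp1r1b in these same mice, and no mouse given irisin alone had a high sum. Irisin alone and the sum thus cannot be told apart in the comparison with control mice. Whether the choroid plexus had a part in the level of Ppp1r1b or Drd2 was not tested.

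**Figure D3:**
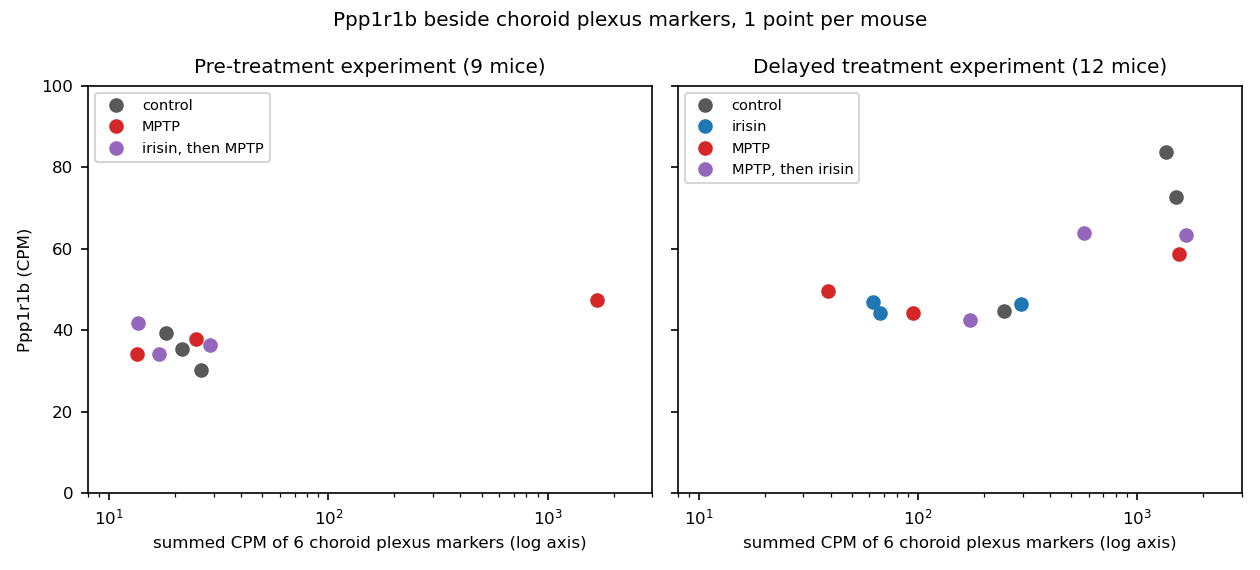
Ppp1r1b in CPM (vertical axis from 0) against the summed CPM of 6 choroid plexus markers (horizontal log axis), 1 point per mouse, coloured by group. With delayed treatment, the 5 mice with sums of 571 to 1666 CPM have 58.8 to 83.8 CPM of Ppp1r1b, and the other 7 have 42.5 to 49.7 CPM.

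Rgs9 (ENSMUSG00000020599; chromosome 11, 109225355 to 109298129, minus strand, 5 transcripts) was the steadiest of the 5 genes in the delayed treatment experiment, with a within-group SD of 0.11 on the log2 scale. Control mice had 13.2, 15.6 and 15.1 CPM, mice given irisin alone 16.6, 16.4 and 15.5 CPM, MPTP mice 14.1, 14.2 and 12.7 CPM and mice given MPTP followed by irisin 15.7, 14.2 and 12.8 CPM. Neighbouring groups in the order of means overlapped. Against control, the log2 fold change was −0.09 in MPTP mice (95% interval −0.32 to 0.13) and 0.15 with irisin alone (95% interval −0.08 to 0.37), which together span from 0.802-fold to 1.29-fold. In the pre-treatment experiment Rgs9 was at 15.9, 11.2 and 14.6 CPM in control mice, 19.8, 15.3 and 14.6 CPM in MPTP mice and 14.3, 18.3 and 16.7 CPM with irisin before MPTP. MPTP against control gave 0.25 there (SE 0.17, unadjusted p = 0.175, adjusted p = 0.882), and 0.30 without MPTP mouse 2. Gnb5 and Rgs7bp, whose proteins bind and anchor the Rgs9 protein, were at means of 26.4 and 23.1 FPKM over 21 mice, above the 2.09 FPKM of Rgs9, and neither had an unadjusted p under 0.05 in any of the 7 comparisons (0).

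**Figure D4:**
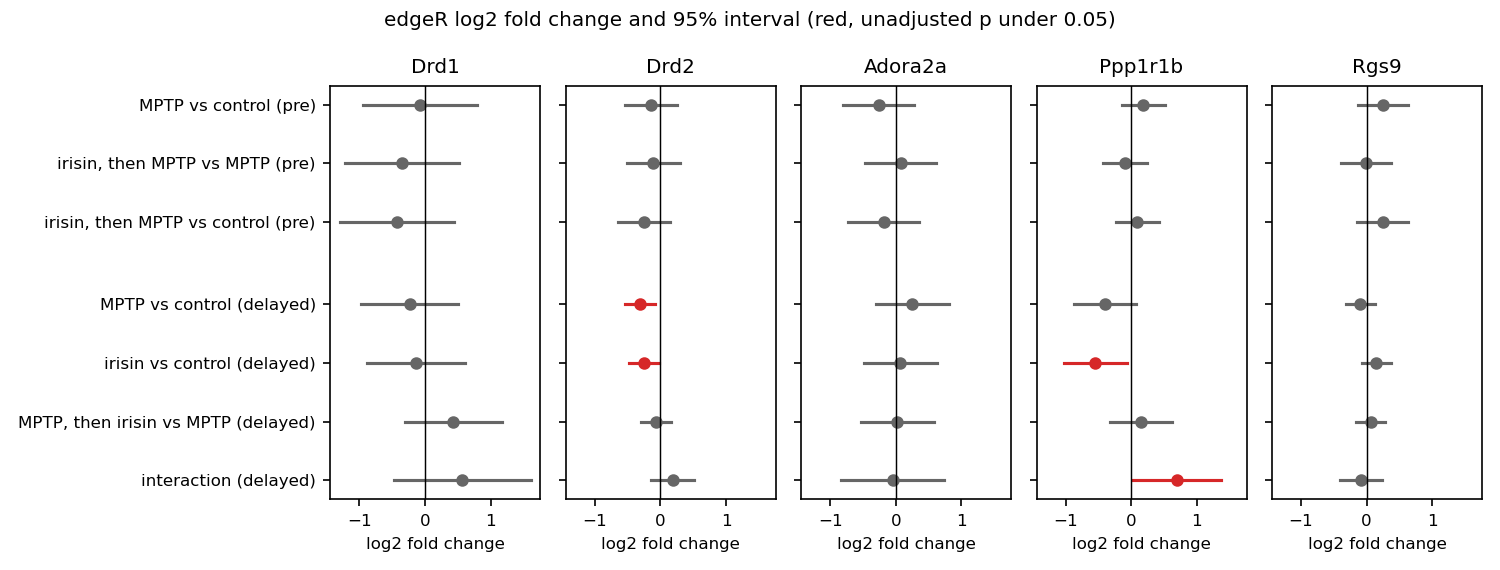
Log2 fold change from edgeR (points) with the 95% interval (lines) for the 5 genes in 7 comparisons, with red where the unadjusted p was under 0.05. The 4 red values are Drd2 in MPTP mice (−0.31) and with irisin alone (−0.25), and Ppp1r1b with irisin alone (−0.55) and in the interaction (0.70). None passed adjustment.

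None of the 5 genes (0) separated any groups of the pre-treatment experiment without overlap. Of all genes tested, 11.6% did so for MPTP against control, 14.2% for irisin before MPTP against MPTP and 13.6% for irisin before MPTP against control. An unadjusted p under 0.05 was found for 6.03%, 6.22% and 7.12% of all genes in these comparisons, and an adjusted one for 0.0221%, 0.0707% and 0.0707%. The median log2 fold change of the 5 genes was −0.07, −0.09 and −0.19 in these comparisons, beside −0.002, 0.003 and 0.004 for all tested genes. With delayed treatment it was −0.23 for MPTP against control, −0.14 for irisin alone and 0.06 for delayed irisin after MPTP, beside −0.001, −0.002 and −0.0002.

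The 25 further genes of striatal projection neurons were tested in both experiments, and none passed an adjusted p of 0.05 in any comparison by edgeR's test (0). Their summed level was 1300 to 1475 CPM in the first experiment and 1589 to 1727 CPM in the second. Abundant genes carry such a sum, and single genes spread more. At the low end were Gpr6 (mean 0.339 FPKM), Isl1 (0.313 FPKM) and Sp9 (0.145 FPKM), and Gpr6 was under 1 CPM in every mouse of the first experiment. How much striatal tissue the pieces held was not tested. The most abundant were Penk (mean 69.95 FPKM), which encodes enkephalin and is also made outside the striatum, Scn4b (52.8 FPKM), a sodium channel subunit, and Pde1b (26.8 FPKM), a phosphodiesterase. Tac1, the substance P precursor, was at 8.83 FPKM, and Pdyn (2.73 FPKM) and Pde10a (1.81 FPKM), the dynorphin precursor and a phosphodiesterase of striatal neurons, were lower. Pde10a ran from 8.61 to 60.8 CPM in the pre-treatment mice, and the groups overlapped. It was at 12.8, 8.61 and 44.3 CPM in control mice, 55.0, 32.3 and 19.8 CPM in MPTP mice and 24.6, 23.0 and 60.8 CPM with irisin before MPTP. The median log2 fold change of the list was 0.04, 0.05 and 0.07 in the pre-treatment comparisons and −0.02, −0.04 and −0.03 in the delayed treatment comparisons, each with 0 to 3 of the 25 genes at an unadjusted p under 0.05. Of all genes tested, 6.03%, 6.22%, 7.12%, 8.33%, 8.97% and 3.90% had such a p in these comparisons, in the same order.

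Among the genes of the striatal list that had such a p, Scn4b was higher in MPTP mice of the delayed treatment experiment (log2 fold change 0.30, SE 0.09, adjusted p = 0.398) and with irisin alone (0.24, SE 0.09, adjusted p = 0.519), both against the same control mice. Penk was higher with irisin before MPTP than in control mice (0.31, SE 0.10, adjusted p = 0.536) but lower with irisin alone (−0.25, SE 0.09, adjusted p = 0.519). The smallest adjusted p of the list in any comparison by edgeR's test was 0.189, for irisin before MPTP against control. In that comparison 2 genes of the list were higher and 1 was lower at an unadjusted p under 0.05. Of 17 genes that act downstream of these receptors, from G protein subunits to protein kinase A, phosphatases and GIRK channels, none passed an adjusted p of 0.05 either (0), and 0 to 3 had an unadjusted p under 0.05 in a comparison. Over all genes tested, 3.90% to 8.97% had such a p. Gnai1, an inhibitory G protein subunit, had one in several comparisons. It was at 0.15 in MPTP mice and 0.23 with irisin alone in the delayed treatment experiment (adjusted p = 0.511 and 0.372), both against the same control mice. With irisin before MPTP against control its sign was the opposite, at −0.15 (adjusted p = 0.661).

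The 5 genes did not all vary together. Of the 10 pairs among them, Pearson's r over 21 mice, after centring each experiment, ran from −0.38 (Adora2a with Rgs9) to 0.45 (Drd1 with Rgs9). For Drd1 and Drd2 it was 0.42 (permutation p = 0.0713, Spearman's rho 0.42, permutation p = 0.0723, adjusted p = 0.359 and 0.396 over 25 relations), made up of 0.87 in the first experiment and −0.08 in the second, and it was 0.45 without the 2 mice farthest from the median. With each group centred on its own mean, the 10 pairs ran from −0.29 (Ppp1r1b with Rgs9) to 0.73 (Drd1 with Rgs9). Drd2 with Rgs9 was then at 0.51 and Drd1 with Drd2 at 0.50. Drd1 had the highest correlation with the mean of the striatal list, at 0.58 (permutation p = 0.00958, adjusted p = 0.239, Spearman's rho 0.61, permutation p = 0.00631, adjusted p = 0.158). This held at 0.54 and 0.71 within the 2 experiments, at 0.78 with each group centred on its own mean and at 0.55 without the 2 farthest mice. Rgs9 was close behind at 0.56 (permutation p = 0.0293, adjusted p = 0.359), with 0.69 and 0.21 within the 2 experiments. Its value was 0.64 with each group centred and 0.17 without the 2 farthest mice. Drd2 had 0.34, Adora2a 0.07 and Ppp1r1b 0.03 with the mean of the striatal list. None of the 25 relations (0) had an adjusted p under 0.05.

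Among 21153 genes tested in both experiments, those with the highest Pearson's r to each of the 5 genes over 21 mice were listed as a description. For Drd1 they were Dusp8, Sox11, 1700017B05Rik, Gpr85 and Kcnj9 (r from 0.80 to 0.83), of which Kcnj9 encodes a subunit of GIRK potassium channels and was also on the list of downstream genes. For Drd2 they were Txndc15, Syngr3, Orai3, Fads1 and Rnd1 (0.79 to 0.87), and Syngr3 is a protein of synaptic vesicles. For Adora2a the values were the lowest, with Gm47059, Grpel2, H2-T23, Ythdf3 and Inip at 0.68 to 0.77. For Ppp1r1b they were Trim62, Gm14033, Mfrp, Gm10221 and Lzts2 (0.79 to 0.83), and Mfrp had 427 counts in MPTP mouse 2 of the pre-treatment experiment against 7 to 33 in the other 8 mice, the mouse with the high choroid plexus sum. For Rgs9 they were Ahi1, Pam, Fnbp1l, Ntrk2 and Gpr83 (0.80 to 0.88). None of the 25 like genes (0) was on the striatal or the dopaminergic list. These lists hold only 25 and 12 genes beside the 21153, so this count says nothing about the 5 genes.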

How the data were processed

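RNA-seq was measured in 21 mice, in 7 groups of 3 taken from the sample labels. The authors sequenced libraries on an Illumina NovaSeq instrument, counted reads with featureCounts and deposited raw counts and FPKM per gene and mouse. The submitters' processing notes name HISAT, StringTie, edgeR and mm9 without roles, whereas the gene coordinates in the tables equal those of GENCODE M21 (GRCm38). The annotation release and the use of strand in counting are not given in the sources used here.

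Counts were fitted with edgeR 4.0.16 in R 4.3.3 (filterByExpr at a minimum count of 10 and total of 15, scaling by TMM, two-sided quasi-likelihood test), each experiment by itself with all its groups, and p-values were adjusted by Benjamini-Hochberg over 22641 genes of the pre-treatment and 21922 of the delayed treatment experiment, with a threshold of 0.05. All 5 genes passed the filter in both. With 3 mice against 3, an exact permutation p cannot fall below 0.1. Correlations used log2 CPM with a prior count of 2 and 100000 permutations of mice within experiments (two-sided). Alternatives were limma 3.58.1 on log2(FPKM + 1) and log2(FPKM + 0.1), which understates changes of low genes, DESeq2 1.42.0 without a filter, median ratio scaling, no filter, only the compared groups, the replicate number as a block, each mouse left out and, chosen after seeing the data, a choroid plexus covariate. Figures were drawn with matplotlib 3.10.9.

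The 5 genes and the gene lists were chosen with earlier results of these data known. Named were the 5 genes, the 5 genes most like each, the 3 of each list with the highest FPKM, the dopamine receptors, Th, Slc6a3, Pde10a, Tac1, Penk, Pdyn, Gnb5 and Rgs7bp, and 1 gene that is not reported here. The further genes of the lists (Gnai1, Ret, Pitx3, Gpr6, Isl1, Sp9 and the choroid plexus markers) were named after their values were seen. Further lists of thalamic, hypothalamic, cortical and hippocampal, endothelial and glial markers were summed per mouse and fitted with all other genes.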

Additional observations from a re-analysis of the deposited data

How the results depend on the processing

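None of the 5 genes (0) passed an adjusted p of 0.05 under any alternative run, and the smallest adjusted p was 0.254 (Ppp1r1b with irisin alone, log2 fold change −0.77, without control mouse 3). Replicate numbers showed no pairing of the mice over all tested genes (deviations of same-numbered mice had correlations of −0.08 to 0.10 in the first experiment and −0.08 to 0.04 in the second), so the groups were not paired in the reported fits. Whether single genes, such as Drd1 with its lowest value in mouse 3 of each delayed treatment group, varied with the replicate number was not tested. The replicate block changed no call of the 5 genes at an adjusted p of 0.05 (0 called), with 2, 8, 2, 17, 14, 1 and 7 genes called among all tested, against 5, 16, 16, 29, 24, 1 and 9 without it. These counts stand for MPTP against control, irisin before MPTP against MPTP and against control, delayed MPTP against control, irisin alone, delayed irisin after MPTP, and the interaction. Over the alternatives run they ranged from 2 to 91, 8 to 169, 2 to 191, 10 to 179, 12 to 145, 1 to 34 and 3 to 62, with the highest count each time from DESeq2 without a filter. Of 275 log2 fold changes under alternatives other than leaving out a mouse, 266 kept their sign. The block turned Rgs9 for irisin before MPTP against MPTP to 0.0082 (−0.0081 without it), and limma on log2(FPKM + 0.1) turned Adora2a for delayed irisin after MPTP to −0.0073. The choroid plexus covariate gave 0.18 for Drd1 (MPTP against control, pre-treatment), −0.044 for Adora2a and 0.040 for Ppp1r1b (irisin before MPTP against MPTP), −0.020 for Adora2a and −0.043 for Ppp1r1b (delayed irisin after MPTP), and −0.075 for Drd2 and 0.071 for Rgs9 (interaction), each of opposite sign. Leaving out 1 mouse kept the sign in 223 of 240 values. The ranges that crossed 0 were −0.41 to 0.22 for Drd1 (MPTP, pre-treatment) and −0.37 to 0.092 (irisin alone), −0.058 to 0.23, −0.23 to 0.21, −0.069 to 0.18 and −0.18 to 0.26 for Adora2a (irisin before MPTP against MPTP, irisin alone, delayed irisin after MPTP, interaction), −0.19 to 0.051 for Ppp1r1b and −0.094 to 0.14 for Rgs9 (irisin before MPTP against MPTP), and −0.015 to 0.14 for Rgs9 and −0.14 to 0.025 for Drd2 (delayed irisin after MPTP). The cause of these turns was not tested. Counts of 70 to 280 per mouse limit Drd1 and Adora2a.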

Other observations

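Other marker lists also differed between single mice. The summed level of 9 hypothalamic markers was 126 CPM in mouse 1 given MPTP followed by irisin and 114 CPM in mouse 1 given irisin alone, while the other 10 mice that received delayed treatment or its controls had 8.31 to 61.2 CPM. The former 2 mice had 3.20 and 2.53 CPM of Drd1, its highest 2 values among the 12 mice. The thalamic markers were also highest in them, at 209.7 and 147 CPM, against 87.7 to 113 CPM in the others. MPTP mouse 3, with the next highest hypothalamic sum (61.2 CPM), had the lowest Drd1 of the 12 mice, at 1.26 CPM. In the pre-treatment experiment, MPTP mouse 2 and control mouse 2 had the highest hypothalamic sums, at 24.2 and 20.5 CPM. Their Drd1 was 1.59 and 1.89 CPM, in a range of 1.59 to 4.03 CPM over that experiment. No gene on the cortical and hippocampal, thalamic, hypothalamic, cerebellar, serotonergic, choroid plexus, endothelial, oligodendrocyte, astrocyte or microglial lists passed an adjusted p of 0.05 in any comparison by edgeR's test (0). The values of these single mice were noticed after the data were seen, and their relation to Drd1 was not tested.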
